A study of Mus musculus with 10 samples.

Results

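The molecular clock of interscapular brown adipose tissue (iBAT) is described here through 10 genes: Arntl, Clock, Npas2, Per1, Per2, Per3, Cry1, Nr1d1, Nr1d2 and Dbp. They are 10 of the 41249 gene identifiers counted in each mouse, and they were chosen by name, as core clock and output genes, with their read counts in 5 Axl KO and 5 wild-type (WT) mice and the relations between them already known. Their levels in both genotypes, and how they vary together from mouse to mouse, are therefore descriptions without a test. Results are drawn from tests only for genes outside these 10.

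In most mammalian cells the clock is a loop of transcription. ARNTL (also called BMAL1) pairs with CLOCK, or with its relative NPAS2, and switches on the Per, Cry, Nr1d1, Nr1d2 and Dbp genes through E-boxes. PER and CRY proteins then hold that pair back, while NR1D1 and NR1D2 (REV-ERBα and REV-ERBβ) repress Arntl through ROR elements, so that the Arntl transcript runs nearly opposite to those of Dbp and the REV-ERB genes over the day, and Cry1 follows later than the Per genes. In brown fat, REV-ERBα is known to take part in the daily rhythm of heat production. A single collection gives 1 point of this cycle per animal, and the hour of collection is not given in the sources used here.

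Bulk RNA of whole iBAT was sequenced from 10 male mice with 1 library each. All received a high-fat diet (HFD) ad libitum, started at 6 to 8 weeks of age and kept for 24 weeks according to the sample records. The 5 Axl KO mice lacked the receptor tyrosine kinase AXL constitutively in the whole body, so no value is specific to a loss in adipocytes. They carried the EUCOMM knockout-first allele, a splice-trapping lacZ and neomycin cassette inside Axl, derived from 2 embryonic stem cell clones, and the 5 WT mice were littermate controls. The animals were kept in a reversed light/dark cycle, with the dark phase during the working day.

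Total counts lay between 5431014 and 9580215 reads per mouse. Axl was at 0.437 to 2.01 CPM (normalised read counts scaled to a common library size) in Axl KO and 38.2 to 52.3 CPM in WT mice (log2 fold change −4.77, adjusted p = 1.1e-07 by the quasi-likelihood test of edgeR), which bears out the genotype labels. The summed brown adipocyte markers ranged from 10400 to 13200 CPM in Axl KO and from 8690 to 10700 CPM in WT mice, and all 9 were detected in every mouse. Skeletal muscle markers varied most, from 4.51 to 2790 CPM in Axl KO and from 690 to 3350 CPM in WT mice, with all 8 detected in every mouse. The libraries that stood apart for clock genes were Axl KO replicate 5, highest in Per1 and Per2, and Axl KO replicate 3, lowest in Dbp, Per2, Nr1d1 and Nr1d2. Another was WT replicate 1, highest in Dbp and Per3 and lowest in Clock and Per1. In such whole-tissue RNA, fewer cells of a type and less RNA per cell cannot be told apart.

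The loop described above acts through short DNA elements. Those found near the starts of 4 clock genes are shown here, as only these genes of the 10 had a match. The RefSeq promoter table (GRCm38.p6) held 9 of the 10 genes, all except Per2. Each window of 300 bases, 250 before to 50 after the start, was searched on both strands for the E-box CACGTG, the ROR element TAGGTCA, the D-box TTATGTAA and the cyclic AMP response element TGACGTCA, none of which contains another. Of all 32851 promoters in the table, 7.15% held the E-box, 2.61% the ROR element, 0.938% the D-box and 1.79% the cyclic AMP response element. The motif is in capitals in each sequence below, which reads 5′ to 3′ on the strand of the gene.
Arntl, 30 bases in the first exon (5′ UTR), chr7:113207530-113207559, forward strand: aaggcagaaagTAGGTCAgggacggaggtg
Cry1, 250 to 21 bases before the start, chr10:85185075-85185304, reverse strand, outside annotated genes: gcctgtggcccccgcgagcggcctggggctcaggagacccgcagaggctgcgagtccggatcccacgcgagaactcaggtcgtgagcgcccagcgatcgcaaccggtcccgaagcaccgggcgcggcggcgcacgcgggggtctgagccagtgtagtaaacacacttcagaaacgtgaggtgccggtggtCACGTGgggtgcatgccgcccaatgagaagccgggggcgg
Per1, 250 to 21 bases before the start, chr11:69098699-69098928, forward strand, in an intron of a longer annotated Per1 transcript: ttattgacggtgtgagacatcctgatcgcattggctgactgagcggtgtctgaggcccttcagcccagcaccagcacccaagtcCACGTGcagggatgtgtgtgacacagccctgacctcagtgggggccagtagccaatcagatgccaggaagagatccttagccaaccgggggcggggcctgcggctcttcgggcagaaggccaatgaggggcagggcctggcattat
Per3, 250 to 21 bases before the start, chr4:151044686-151044915, reverse strand, in an intron of Camta1: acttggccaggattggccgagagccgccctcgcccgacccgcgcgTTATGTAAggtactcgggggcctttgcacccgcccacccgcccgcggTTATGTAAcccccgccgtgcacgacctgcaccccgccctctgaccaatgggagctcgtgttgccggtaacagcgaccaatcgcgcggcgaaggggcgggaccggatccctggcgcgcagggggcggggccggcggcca
In Arntl the ROR element, through which REV-ERBs and RORs act, began 31 bases after the second of its listed starts. The E-box began 60 bases before the Cry1 start and 166 bases before the Per1 start. Per3 had 2 D-boxes, the element bound by DBP and its relatives, at 205 and 158 bases before the start, and no E-box of these letters in the window. Clock, Npas2, Nr1d1, Nr1d2 and Dbp held none of the 4 letter strings in their windows, which says only that these letters are not there. A match is a run of letters and not a measured site.

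Per length of exon, the clock genes covered a wide range of levels in iBAT. On the RPKM scale (CPM per kilobase of exon), the order of the mean levels over the 10 mice was Nr1d2 (11.6), Per3 (11.2), Clock (11), Per2 (9.45), Cry1 (7.72), Dbp (5.14), Per1 (5.14), Nr1d1 (2.16), Arntl (2.07) and Npas2 (0.0451). The ranges of neighbours in this order overlapped over the mice except for Arntl above Npas2. Of the 2 REV-ERB genes, Nr1d2 was thus the more abundant transcript, and CLOCK's transcript exceeded that of its partner. Between neighbours, Per2 was above Cry1 and Per1 above Nr1d1 within each of the 10 mice, whereas Per3 was above Clock in 5 and Dbp above Per1 in 4 of the 10.

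How much a clock gene differed between animals also depended on the gene. The highest mouse exceeded the lowest 3.73-fold in Per1 CPM, 2.9-fold in Dbp, 2.05-fold in Nr1d1 and 2-fold in Arntl. The span was 1.84-fold for Per3, 1.74-fold for Per2, 1.45-fold for Clock, 1.34-fold for Nr1d2 and 1.28-fold for Cry1. Around the genotype means, the SD of log2(CPM + 0.5) was 0.535 for Per1, 0.42 for Dbp and 0.106 for Cry1. Of the 13739 genes tested, 4.24% had a higher such SD than Per1, 9.57% a higher one than Dbp and 81.1% a higher one than Cry1. Counting error alone gives a coefficient of variation of 14.3% for Nr1d1, the gene with the fewest reads of these 9, and 9.33% for Dbp, 6.97% for Per1 and 7.33% for Cry1. The observed coefficient of variation of Cry1 was 7.52% in Axl KO and 7.18% in WT mice, about what counting error alone gives.

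**Figure D1:**
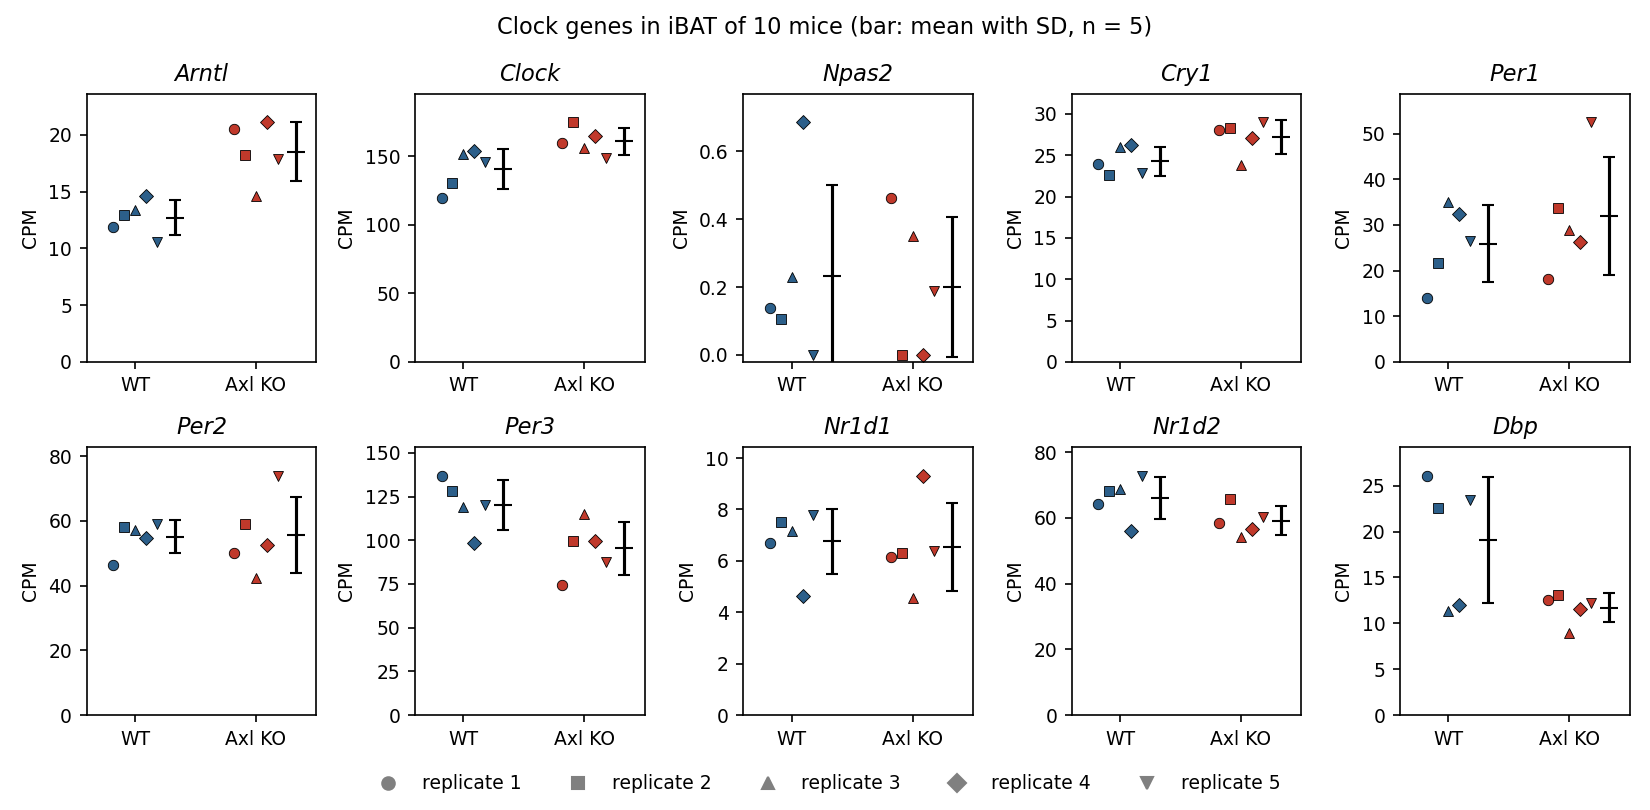
Normalised read counts (CPM, y axis from 0 except for Npas2, which starts just below 0) of the 10 clock genes in each WT (blue) and Axl KO (red) mouse, with the replicate number as the symbol and the mean ± SD (n = 5) in black. Dbp lay between 8.98 and 13.1 CPM in all 5 Axl KO mice but between 11.3 and 26.1 CPM in WT mice, and Arntl groups met at 14.6 CPM.

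Among the activators, Arntl had higher values in most Axl KO mice. Arntl (ENSMUSG00000055116, chr7:113207465-113314126, forward strand) encodes the clock's obligate activator and stood at 20.5, 18.2, 14.6, 21.1 and 17.9 CPM in Axl KO replicates 1 to 5. In WT replicates 1 to 5 it stood at 11.9, 12.9, 13.4, 14.6 and 10.6 CPM. The groups touched, since Axl KO replicate 3 and WT replicate 4 were both at 14.6 CPM, and the other 4 Axl KO mice lay above every WT mouse. The means were 18.5 ± 2.59 CPM and 12.7 ± 1.53 CPM (SD, n = 5 each), a log2 fold change of 0.54 (SE 0.12). With each mouse left out in turn it stayed between 0.48 and 0.62.
Clock (ENSMUSG00000029238, chr5:76209868-76304792, reverse strand), whose protein is the histone acetyltransferase that pairs with ARNTL, showed a smaller difference. It stood at 160, 175, 156, 165 and 149 CPM in Axl KO replicates 1 to 5 and at 120, 131, 152, 154 and 146 CPM in WT replicates 1 to 5. WT replicates 1, 2 and 5 lay below every Axl KO mouse, and WT replicates 3 and 4 lay among them. Clock's log2 fold change was 0.20 (SE 0.08).
Npas2 (ENSMUSG00000026077, chr1:39193731-39363236, forward strand) was close to absent from the counts. It had 3, 0, 3, 0 and 1 reads in Axl KO and 1, 1, 2, 4 and 0 reads in WT replicates 1 to 5, at most 0.688 CPM. No fold is given for it, as most of these values lie at or under a floor of 3 reads, and it was the 1 gene of the 10 below the filter of a mean above 1 CPM.

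The repressor genes did not move as a block. Per1 (ENSMUSG00000020893, chr11:69095217-69109960, forward strand), a PERIOD gene that also responds quickly to glucocorticoids and cyclic AMP, stood at 18.1, 33.8, 28.8, 26.3 and 52.5 CPM in Axl KO replicates 1 to 5. In WT replicates 1 to 5 it stood at 14.1, 21.6, 35.1, 32.5 and 26.4 CPM. The groups overlapped almost completely, and replicate 1 was lowest in each. The log2 fold change of 0.29 (SE 0.27) fell to 0.05 without Axl KO replicate 5.
Per2 (ENSMUSG00000055866, chr1:91415982-91459324, reverse strand), the PERIOD gene that follows systemic cues closely in peripheral tissue, had the log2 fold change nearest to 0 of these genes. It stood at 50.1, 59.1, 42.4, 52.5 and 74 CPM in Axl KO and at 46.3, 58.1, 57.1, 54.7 and 59.1 CPM in WT replicates 1 to 5. The Axl KO mice enclosed the WT range, with replicate 3 below and replicate 5 above every WT mouse. The log2 fold change was 0.008 (SE 0.13), and its sign changed when Axl KO replicate 2, Axl KO replicate 5 or WT replicate 1 was left out.
Per3 (ENSMUSG00000028957, chr4:151003652-151044665, reverse strand), a PERIOD gene outside the minimal loop, leaned the other way. It stood at 74.4, 99.8, 115, 99.6 and 87.7 CPM in Axl KO and at 137, 128, 119, 98.5 and 120 CPM in WT replicates 1 to 5. Each Axl KO mouse lay below 4 of the 5 WT mice, and WT replicate 4 lay among the Axl KO mice. The log2 fold change was −0.34 (SE 0.11), between −0.42 and −0.26 with each mouse left out.
Cry1 (ENSMUSG00000020038, chr10:85131700-85185064, reverse strand) encodes the cryptochrome that represses ARNTL and CLOCK late in the cycle, and its own promoter combines the E-box shown above with inputs from REV-ERBs elsewhere in the gene. It stood at 28.1, 28.3, 23.8, 27.1 and 29 CPM in Axl KO and at 23.9, 22.6, 26, 26.3 and 22.8 CPM in WT replicates 1 to 5. All Axl KO mice except replicate 3 lay above all WT mice. For Cry1 the log2 fold change was 0.16 (SE 0.08).

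The REV-ERB genes overlapped between genotypes. Nr1d1 (ENSMUSG00000020889, chr11:98767932-98775333, reverse strand), which encodes REV-ERBα, stood at 6.17, 6.31, 4.55, 9.32 and 6.4 CPM in Axl KO and at 6.69, 7.51, 7.17, 4.64 and 7.8 CPM in WT replicates 1 to 5. Axl KO mice held both the lowest (replicate 3) and the highest value (replicate 4), and the groups overlapped. The log2 fold change was −0.06 (SE 0.19), and it ranged from −0.23 without Axl KO replicate 4 to 0.05 without Axl KO replicate 3. Nr1d1 shares 263 bases, or 8.55% of its exons, with the opposite-strand gene Thra, a thyroid hormone receptor at 68.8 to 108 CPM in Axl KO and 88.6 to 99.3 CPM in WT mice. How the counting treated strand is not given in the sources used here, so reads of both genes could mix there.
Nr1d2 (ENSMUSG00000021775, chr14:18204054-18239127, reverse strand), which encodes REV-ERBβ, stood at 58.6, 65.8, 54.3, 56.5 and 60.4 CPM in Axl KO and at 64.2, 68.1, 68.9, 56 and 72.9 CPM in WT replicates 1 to 5. WT replicate 4 lay among the Axl KO mice, Axl KO replicate 2 lay above WT replicate 1, and the groups overlapped. This gave a log2 fold change of −0.16 (SE 0.08).

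Dbp, a PAR-domain activator whose transcript is one of the most widely swinging clock outputs, had the largest difference of these genes and the most uneven WT group. Dbp (ENSMUSG00000059824, chr7:45705088-45710203, forward strand) stood at 12.5, 13.1, 8.98, 11.6 and 12.2 CPM in Axl KO replicates 1 to 5. In WT replicates 1 to 5 it stood at 26.1, 22.6, 11.3, 12 and 23.4 CPM. WT replicates 1, 2 and 5 lay above every Axl KO mouse, whereas WT replicates 3 and 4 lay within the Axl KO range. The means were 11.7 ± 1.6 CPM in Axl KO and 19.1 ± 6.89 CPM in WT mice (SD, n = 5 each), a log2 fold change of −0.72 (SE 0.23) that stayed between −0.87 and −0.59 with each mouse left out. Dbp shares 539 bases, or 18% of its exons, with Sphk2 on the opposite strand, which stood at 17.3 to 21 CPM in Axl KO and 18.2 to 21.7 CPM in WT mice (log2 fold change −0.004, SE 0.08). Both Dbp and Arntl lie on chromosome 7 with Axl, at distances of 19.9 Mb and 87.5 Mb, and sequence variants linked to the Axl allele were not examined.

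Over the 9 clock genes that passed the filter, 5 had a positive and 4 a negative log2 fold change, and the median was 0.008, against −0.000589 over all genes tested. None of them, 0 of 9, had an adjusted p under 0.05 in edgeR, against 0.00728% of all genes tested, that is Axl alone. An unadjusted p under 0.05 was reached by 4, Arntl and Clock with higher and Per3 and Dbp with lower values in Axl KO mice, against 8.4% of all genes tested (4.54% higher and 3.86% lower in Axl KO). DESeq2 gave the same counts, 0 and 4. The groups did not overlap for 0 of the 9, against 1.35% of all genes tested. As these genes were listed with this comparison known, nothing is read from these counts. At this size, genes simulated with a log2 fold change of 0.5 were called by edgeR in 37% of cases and those with 1 in 85%. In that simulation 200 of 13739 genes were changed, which makes a call easier than here, where Axl alone was called. These shares can therefore be too high for the clock genes, and a missing call says little about them.

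The phase relations between clock genes were then described over the 10 mice, as Pearson's r and Spearman's rho of log2(CPM + 0.5). Since genotype can itself align genes, each value is also given after the genotype mean was removed from every mouse. All pairs share the libraries and their depth, n is 10 mice, and no p is given. The first arm of the loop was taken as Arntl, Clock and Cry1, whose transcripts peak late in the cycle in most tissues, and the second as Per1, Per2, Per3, Nr1d1, Nr1d2 and Dbp. Npas2 was left out of these summaries for its low counts.

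Arntl, Cry1 and Per3 gave the tightest triangle. Within genotypes, however, the spread of Cry1 was about that of counting error, which limits its values with genotype removed. Arntl and Cry1 went up together (r = 0.84, rho = 0.794), and with genotype means removed the values were 0.72 and 0.624. Without the 2 mice farthest from the median of Arntl, however, the latter r was 0.247, so that the relation within genotypes rests on those mice. Per3 ran opposite to Arntl (r = −0.823, rho = −0.83; genotype removed −0.639 and −0.612) and opposite to Cry1 (r = −0.829, rho = −0.794; genotype removed −0.698 and −0.733). Without the 2 farthest mice, these values within genotypes were −0.593 and −0.732. The mouse with the lowest Per3, Axl KO replicate 1 at 74.4 CPM, had the second highest Arntl, and the mouse with the highest Per3 of Axl KO, replicate 3 at 115 CPM, had the lowest Arntl and Cry1 of that group. The E-box of Cry1 and the D-boxes of Per3 printed above belong to a pair of repressor genes that ran in opposite directions across these animals. Whether these elements have a part in that was not tested.

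Arntl and Dbp, which run nearly opposite over the day, were inversely related over all mice (r = −0.642, rho = −0.455). With genotype means removed, r was −0.263 and rho −0.455, and r was −0.602 without the 2 mice farthest in Arntl. The sign differed between the genotypes: r was negative over the 5 WT mice and positive over the 5 Axl KO mice, of which replicate 3 was lowest for both genes. With 5 mice each, no value is given, and the difference in sign was not tested. The 3 WT mice with the most Dbp, replicates 1, 2 and 5, were also the 3 WT mice with the least Arntl, Clock, Cry1 and Per1 and with the most Per3. Dbp was related inversely to Clock as well (r = −0.769, rho = −0.527; genotype removed −0.601 and −0.467). With genotype removed, r was −0.273 without the 2 mice farthest in Clock. For this pair, too, and for Cry1 with Dbp, r was negative over the WT mice and positive over the Axl KO mice, where replicate 2 was highest for both Clock and Dbp. The log2 ratio of Arntl to Dbp CPM was 0.69, 0.46, 0.67, 0.83 and 0.53 in Axl KO and −1.1, −0.79, 0.23, 0.27 and −1.11 in WT replicates 1 to 5. The Axl KO mice lay close together and above all WT mice for this ratio, although neither gene alone separated the groups. The ratio was formed with both results known. Ratios of Arntl to Per3, Per1 to Per3 and Nr1d2 to Nr1d1 were formed as well, and for each of these the groups overlapped. How often ratios of other gene pairs separate the groups was not examined, so nothing is read from this separation.

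**Figure D2:**
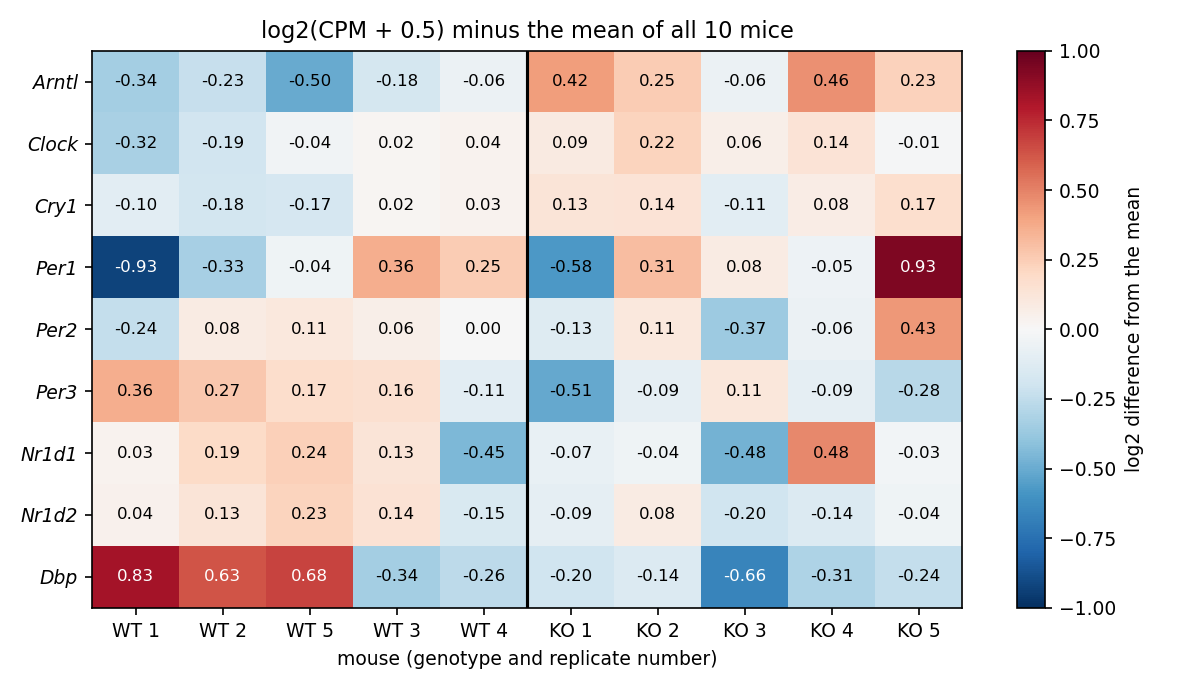
Difference of log2(CPM + 0.5) from the mean of all 10 mice for 9 clock genes (rows) in each mouse (columns, WT left of the line, WT replicates 3 and 4 placed last), red for higher and blue for lower. WT replicates 1, 2 and 5 combine Dbp at 0.63 to 0.83 above the mean with Arntl at −0.50 to −0.23, whereas WT replicates 3 and 4 have Dbp at −0.34 and −0.26, as Axl KO mice do (−0.66 to −0.14).

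Within the second arm the Per genes did not go together. Per1 and Per2 were related (r = 0.673, rho = 0.564; genotype removed 0.704 and 0.636), with Axl KO replicate 5 highest for both, and without the 2 mice farthest in Per1 the r within genotypes was 0.376. Over all mice Per3 had weak negative values with Per1 (r = −0.299, rho = −0.333) and with Per2 (r = −0.26, rho = −0.067). With genotype removed, r and rho were −0.157 and −0.394 with Per1, and −0.362 and −0.297 with Per2. For Per3 with Per1, r was negative over the WT mice and positive over the Axl KO mice. Per1 ran opposite to Dbp (r = −0.568, rho = −0.503; genotype removed −0.527 and −0.576), although both are E-box targets of the same pair of activators. This inverse order was that of the WT mice, whereas in Axl KO mice r was close to 0, with Per1 highest in replicate 5 and lowest in replicate 1 at nearly equal Dbp (12.2 and 12.5 CPM). Nr1d1 and Nr1d2 went together (r = 0.514, rho = 0.612; genotype removed 0.558 and 0.418; 0.756 without the 2 farthest mice), and Nr1d2 went with Dbp (r = 0.672, rho = 0.552; genotype removed 0.489 and 0.394; 0.212 without the 2 farthest mice).

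Summed up over pairs, the 3 pairs of the first arm had a median r of 0.696, the 15 pairs of the second arm 0.314 and the 18 pairs between the arms −0.237. With genotype means removed, these medians were 0.391, 0.17 and −0.015. All 3 pairs of the first arm and 11 of 15 of the second then had a positive r, and 11 of 18 pairs between the arms had a negative one. Within genotypes the pairs between the arms thus scattered around 0, from −0.698 to 0.515, and only Per3 with Arntl, Per3 with Cry1 and Dbp with Clock lay below −0.5. Of these, Dbp with Clock had a negative r over the WT mice alone, as given above. For scale, an r of at least 0.7 within genotypes with Arntl was found for 3.46% of all tested genes and one of at most −0.7 for 4.03%, and the corresponding shares were 1.65% and 1.44% for Dbp.

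**Figure D3:**
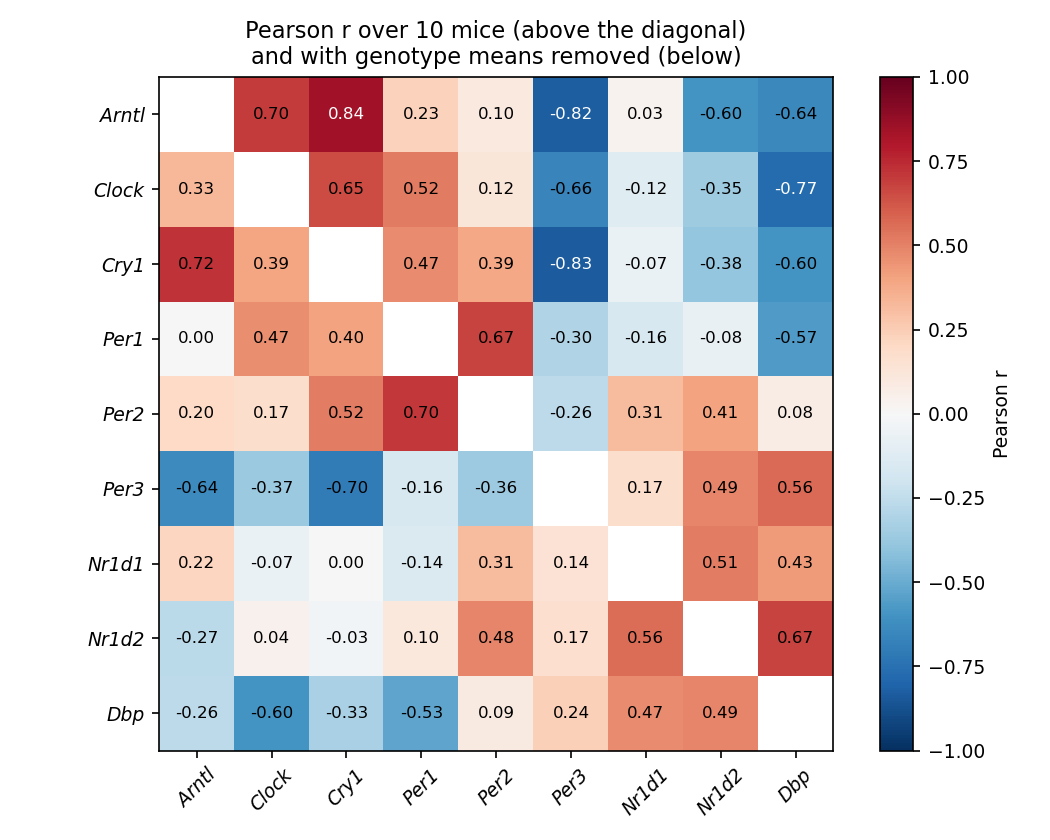
Pearson r between 9 clock genes over 10 mice, above the diagonal for log2(CPM + 0.5) and below it after removal of the genotype means, red for positive and blue for negative. The strongest values above the diagonal, 0.84 for Arntl with Cry1 and −0.83 for Per3 with Cry1, become 0.72 and −0.70 below it, while Arntl with Dbp goes from −0.64 to −0.26.

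**Figure D4:**
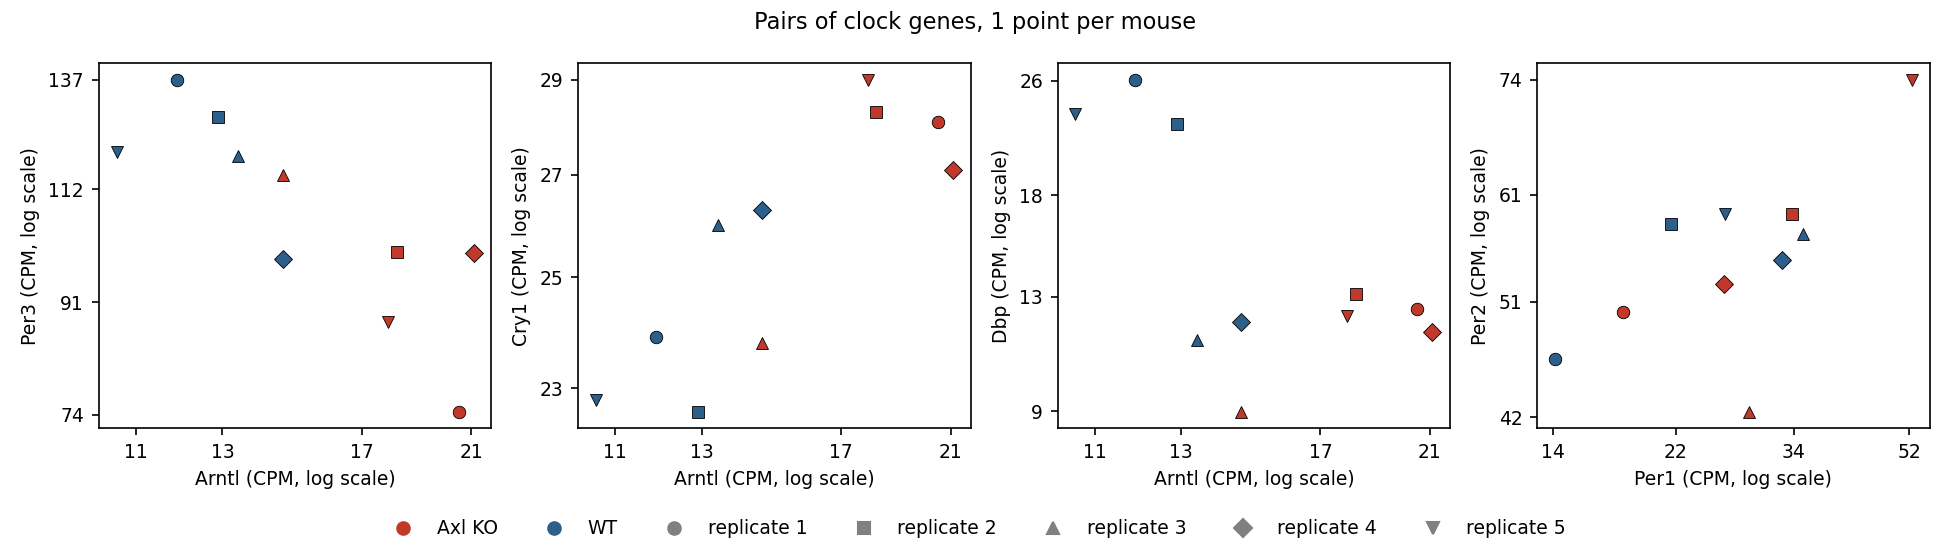
Levels of 4 pairs of clock genes in each mouse (CPM on log axes, 1 point per mouse, Axl KO red and WT blue, symbol by replicate number). Per3 goes down and Cry1 goes up with Arntl over both genotypes, Dbp splits the WT mice into 3 at 22.6 to 26.1 CPM and 2 at 11.3 to 12 CPM, and Axl KO replicate 5 lies at the top right for Per1 and Per2.

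Several marker lists and the depth moved with the clock genes from mouse to mouse. The correlations in this paragraph are Pearson's r over the 10 mice after removal of the genotype means, descriptions over shared libraries whose part in the results above was not tested. Each list is taken as its summed CPM, in which abundant genes weigh most. The sum of 11 glucocorticoid-responsive genes went with Per1 (0.757), Clock (0.787) and Cry1 (0.698) and against Dbp (−0.632). Pdk4 made up most of this sum, at 970 to 2260 CPM in WT mice against 1350 to 2770 CPM for the list. With Dbp, r was −0.639 for Pdk4, −0.254 for Fkbp5 and 0.339 for Mt1, so the 11 genes did not share a sign. The summed immediate early genes went against Per1 (−0.728). Jun made up most of this sum, at 58.9 to 86.4 CPM in WT mice against 87.2 to 123 CPM for the list. The genes did not move as a class. In Axl KO replicate 5, the mouse with the most Per1, Jun and Egr1 were lowest of the Axl KO group, but Fos and Junb were highest. Among cell type markers, the 6 macrophage genes went against Arntl (−0.941), and the 5 white fat genes went against Cry1 (−0.92) and Arntl (−0.729) and with Per3 (0.661). The 5 endothelial genes went against Arntl (−0.68) and Cry1 (−0.67), and the sum of the 9 brown adipocyte genes went with Per2 (0.676). Ucp1 alone gave 4850 to 7630 CPM of that sum, which was 10400 to 13200 CPM in Axl KO mice. Axl KO replicate 5 was highest in both Ucp1 and Per2. Summed macrophage markers ranged from 109 to 201 CPM in Axl KO and from 119 to 188 CPM in WT mice with all 6 detected in every mouse. White fat markers ranged from 209 to 659 CPM in Axl KO and from 284 to 595 CPM in WT mice, with 4 of 5 detected in every mouse. The total count went against Cry1 (−0.74) and with Per3 (0.656). All values of Cry1 in this paragraph carry the limit of counting error given above. With summed muscle markers added as a covariate after the data were seen, the log2 fold changes were 0.50 for Arntl, 0.15 for Clock, 0.47 for Per1, −0.29 for Per3 and −0.90 for Dbp.

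Genes outside the 10 were tested in fits over all genes, first between genotypes. The list of 17 other clock genes holds further loop members (Arntl2, Cry2, Ciart, Bhlhe40 and Bhlhe41), the ROR activators Rora and Rorb, relatives of Dbp and their antagonist (Tef, Hlf and Nfil3), kinases and ubiquitin ligases that set PER and CRY stability (Csnk1d, Csnk1e, Fbxl21, Fbxw11 and Btrc) and the REV-ERB corepressor pair Ncor1 and Hdac3. All 17 passed the filter, and 0 had an adjusted p under 0.05 between Axl KO and WT mice. Neither did any reach an unadjusted p under 0.05, in edgeR or in DESeq2, against 8.4% of all genes in edgeR. Of the 17, 3 had a positive and 14 a negative log2 fold change (median −0.10). Over all genes tested, 49.8% were positive and the median was −0.000589. The second cryptochrome, Cry2, was at 32.5 ± 3.13 CPM in Axl KO and 35.9 ± 3.69 CPM in WT mice (SD, n = 5 each; log2 fold change −0.14, SE 0.09), where Cry1 had 0.16. Of the PAR-domain relatives of Dbp, Tef had a log2 fold change of −0.03 (SE 0.08) and Hlf one of 0.02 (SE 0.14). Rora, the activator that competes with REV-ERBs at ROR elements, was at 43.3 ± 3.32 CPM and 47.5 ± 3.57 CPM (SD, n = 5 each; log2 fold change −0.13, SE 0.07).

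**Figure D5:**
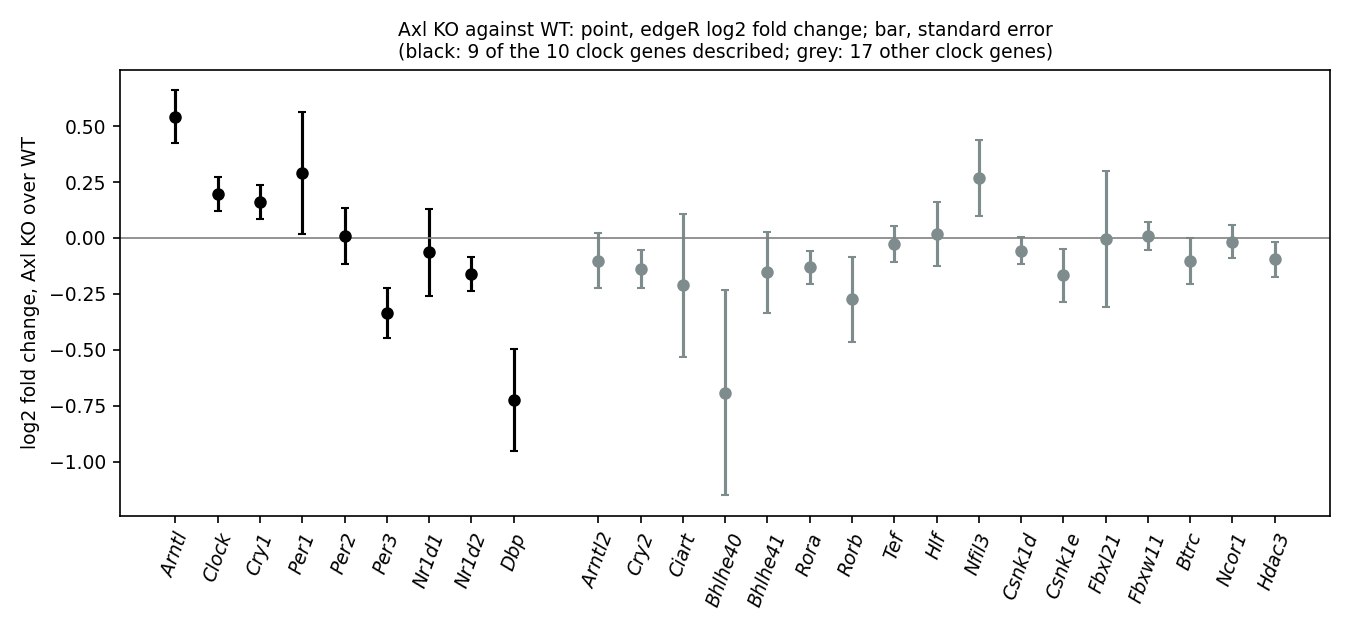
Log2 fold change of Axl KO over WT (y axis, point) with its standard error (bar) from edgeR for 9 of the 10 clock genes described (black) and 17 other clock genes (grey). Arntl at 0.54 and Dbp at −0.72 lie farthest from 0 among the black points, Bhlhe40 at −0.69 with a standard error of 0.46 among the grey ones.

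A second fit asked which genes vary with Dbp from mouse to mouse within genotypes, with genotype as a covariate and the slope per log2 unit of Dbp CPM. In edgeR, 0 of 13738 genes (0%) had an adjusted p under 0.05 and 616 (4.48%) an unadjusted one, and in DESeq2 the counts were 0 and 386. Of the 17 other clock genes 0 passed adjustment and 3 had an unadjusted p under 0.05 in each tool. In edgeR these were Bhlhe40, Rorb and Ncor1. Bhlhe40, a repressor of E-box genes and itself an E-box target, had a positive slope of 1.52 (SE 0.53; edgeR adjusted p = 0.998). It stood at 143, 228 and 77.8 CPM in WT replicates 1, 2 and 5, the mice with high Dbp, and at 36.3 and 39 CPM in WT replicates 3 and 4. In Axl KO replicates 1 to 5 it stood at 94, 33.5, 79.2, 49.9 and 69.8 CPM, an order that did not follow Dbp. Rorb and Ncor1 had negative slopes of −0.59 (SE 0.19) and −0.20 (SE 0.08), each with an edgeR adjusted p of 0.998. None of these 3 passed the test over all genes. In simulated counts with 200 changed genes, slopes of 1 were called by edgeR in 63% of cases and slopes of 0.5 in 0%. At best, only steep relations with Dbp could thus be detected, and with fewer related genes the shares can be lower.

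Clock outputs and thermogenic genes gave 0 calls in both edgeR fits over 10 genes. Against WT, 4 of the 10 had an unadjusted p under 0.05 in edgeR, 3 higher and 1 lower, against 8.4% of all genes (4.54% higher and 3.86% lower). DESeq2 called 1 of them, Dio2, among 9 genes in all. The REV-ERB target Elovl3, a fatty acid elongase, was at 104, 45.1, 25.8, 58.8 and 164 CPM in Axl KO and at 32.6, 27.1, 5.67, 34.2 and 25.5 CPM in WT replicates 1 to 5. Its slope on Dbp was 1 (SE 0.69; edgeR adjusted p = 0.998), while Nampt, a direct target of the activators that makes NAD, had −0.17 (SE 0.14) and Usp2, a clock-controlled deubiquitinase, −0.02 (SE 0.32). Among 11 glucocorticoid-responsive genes, 8 had higher and 3 lower means in Axl KO mice, where 49.8% of all genes tested were higher. Of the 11, 0 had an unadjusted p under 0.05 in edgeR (8.4% of all genes) and 2 in DESeq2 (952 of all genes). A negative slope on Dbp at an unadjusted p under 0.05 in edgeR was found for 3 of the 11, against 4.48% of all genes with either sign.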

How the data were processed

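Libraries were made with a TruSeq kit from Trizol-extracted RNA of whole iBAT. The authors deposited 1 table per mouse with raw counts per Ensembl gene, without normalization. The methods of the study name Trim Galore and hisat2, whereas the submitters' processing notes list Trimmomatic 0.36, STAR 2.6.1c and GRCm38.p5, and which made the counts is not settled here. The counting tool and strand setting are not given in the sources used here. Likewise the records name polyadenylated RNA and the methods rRNA depletion, and the methods give a slightly later start and a slightly longer HFD than the records.

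Identifiers were named with GENCODE M21, and 86 of 41249 did not match. Genes with a mean above 1 CPM (13739) were scaled by TMM and compared in R 4.3.3 with edgeR 4.0.16 (quasi-likelihood test, Benjamini-Hochberg adjustment over all genes, call under 0.05), or DESeq2 1.42.0 as an alternative. CPM are TMM-normalised, correlations use log2(CPM + 0.5), and RPKM uses the summed exon length. The spread between mice of one genotype was 14.8% in the edgeR model. The tables of any pair of mice differed by more than counting noise (lowest chi-square per gene 5.39). Scripts were tested on simulated counts.

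The 10 genes and all lists were chosen with earlier results of these data known. The list of other clock genes was shortened by 2 genes that are not reported here. Named besides the 10 genes are Axl, the other clock genes, set examples from the output and glucocorticoid lists, and the genes most alike to Dbp and Arntl. Genes that overlap a clock gene or its promoter (Thra, Sphk2, Camta1) and those that single settings called (Lep, Sh3pxd2a, Lgals3, Lyz2) were named after their values were seen. So were Pdk4, Mt1, Jun, Egr1, Fos and Junb. Alternatives were DESeq2, RLE size factors, other filters, a replicate block, single mice left out, Spearman's rho, another pseudocount, no TMM, removal of genotype means and Arntl as reference; a muscle covariate was added after seeing the data.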

Additional observations from a re-analysis of the deposited data

Results flagged for a closer look

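Among 72 groups of 5 mice examined, 5 held 1 mouse far from its peers by Dixon's criterion, where chance gives about 1 in 20, or 3.6. Of these, 4 came from Axl KO replicate 5, the mouse with the highest Per1 and Per2. Its Usp2, a clock-controlled deubiquitinase, was at 55 CPM against 23.7 CPM in the next Axl KO mouse. The glucocorticoid-responsive genes Fkbp5 (37.5 CPM against 10.5 CPM in the next mouse) and Tsc22d3 (273 CPM against 132 CPM) and the thermogenic gene Ucp1 (7630 CPM against 5570 CPM) were highest in the same mouse. Without it, the log2 fold change of Per1 was 0.05 and that of Per2 −0.11. Axl itself was lowest in Axl KO replicate 4, at 0.437 CPM against 1.69 CPM in the next mouse. No clock gene among the 9 that passed the filter had such a mouse in either genotype, and Npas2 was not examined.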

How the results depend on the processing

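Of 144 recomputed log2 fold changes of the clock genes, 5 changed sign. Per2 was −0.005 with the replicate block. It was −0.016, −0.114 and −0.048 without Axl KO replicate 2, Axl KO replicate 5 and WT replicate 1. Nr1d1 was 0.051 without Axl KO replicate 3. All 144 stayed within 1 SD of the mice, but leaving out a single mouse could hardly move a value that far. Nothing is therefore read from this. Per1, for example, went from 0.289 to 0.05 without Axl KO replicate 5. Between 4 and 6 genes were higher in Axl KO mice with single mice left out, against 5. DESeq2 called 9 genes between genotypes where edgeR called 1, and 0 of the clock genes. Other clock genes gave 0 calls throughout. The slope fit called 0 genes on Dbp, but 2 without Axl KO replicate 3 (Lep and Sh3pxd2a) and 2 on Arntl (Lgals3 and Lyz2), none a clock gene; with single mice left out it called 0 to 2. The correlation of Arntl and Dbp was −0.455 as Spearman's rho, −0.263 with genotype means removed, and −0.751 to −0.525 with single mice left out. The median r between arms (−0.348 to −0.138 with single mice left out) was −0.015 with genotype means removed, and that within arms was 0.276 to 0.465 against 0.416. Deviations of same-numbered mice of the 2 genotypes correlated between −0.355 and 0.37. Mice with different numbers were not compared, so whether the replicate numbers pair the mice cannot be told from this. With the replicate number as a block, edgeR called 1 gene between genotypes and 0 in the slope fit, and 4 clock genes were higher in Axl KO mice. The depth limits Nr1d1 and Npas2 most.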

Other observations

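The genes whose levels were most alike to Dbp over the 10 mice, by Pearson's r of log2(CPM + 0.5) among genes with a mean above 1 CPM, were Hnrnpul1 (0.875), Prdm10 (0.858), Ltbp4 (0.85), C230096K16Rik (0.843) and Tmem184b (0.842). Of these, Hnrnpul1 (chr7:25721165-25754757) and Ltbp4 (chr7:27305136-27337692) lie near Axl (chr7:25757273-25788705), and variants linked to the Axl allele were not examined. The most opposite were Suz12 (−0.882), a Polycomb subunit, Mga (−0.857), Zfp518a (−0.857), Man1a2 (−0.842) and Taf5 (−0.842). Those most alike to Arntl were Api5 (0.958), Med24 (0.944), Orai3 (0.935), Atp6v0b (0.93) and 2410015M20Rik (0.92). None of these 15 is a clock gene of the lists used here. With genotype means removed, the r of Hnrnpul1 with Dbp was 0.863 and that of Api5 with Arntl 0.944. They were picked as extremes among all genes, and the values are descriptions over 10 mice with shared libraries.

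Of the 17 other clock genes, 13 were in the promoter table. Among these, the window of Ciart, a repressor of the ARNTL and CLOCK pair, held 3 E-boxes of the letters CACGTG, at 116, 58 and 44 bases before the start. Nfil3, the antagonist of DBP at D-boxes, had a ROR element 12 bases before its start. Ciart stood at 1.08 to 4.89 CPM in Axl KO and 2.2 to 3.91 CPM in WT mice, and Nfil3 at 39.8 to 82.2 CPM and 38.3 to 53.5 CPM, so the groups overlapped for both.

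The remaining lists gave these ranges of summed CPM. Endothelial markers lay at 406 to 507 in Axl KO and 394 to 573 in WT mice, Schwann cell and nerve markers at 223 to 308 and 233 to 329, erythroid markers at 384 to 714 and 474 to 666, and B and T cell markers at 0 to 0.933 and 0.378 to 1.27. Of 8 temperature-responsive genes 0 had an unadjusted p under 0.05 between genotypes in edgeR or DESeq2. Of the immediate early genes 2 of 7 tested did in edgeR, both lower in Axl KO mice, against 8.4% of all genes (3.86% lower), and 0 passed adjustment.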
